A study of Mus musculus with 6 samples.

Results

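The genes described here encode members of the interleukin-1 (IL-1) cytokine family, their receptors and inhibitors, and the core of the inflammasome. They are Il18, Il18bp, Il18r1, Il1a, Il1b, Il1r1, Il1rn, Il33, Casp1 and Nlrp3. All probe sets of the array whose annotation carries 1 of these symbols alone were taken, which gave 13 probe sets for 10 genes out of 18193 genes in all. The genes were chosen by symbol with the log2 age differences of these same arrays already known, Il18 among them, so every age difference of the 10 genes is a description and was not tested. The study hybridised choroid plexus RNA of the lateral ventricles from male CD1 mice, an outbred stock, 3 of them 18 months old and 3 of them 2 months old. An array held the plexuses of both lateral ventricles of 1 mouse. The labels give no genetic change and no treatment for either age. RNA from a whole plexus mixes epithelium, stroma, vessels and immune cells. In such samples fewer cells of a type and less RNA per cell cannot be told apart.

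IL-1 family cytokines are danger signals. Most lack a signal peptide, and Il1b and Il18 encode precursors that become active once caspase-1, the product of Casp1, has cut them. Caspase-1 is itself switched on in the inflammasome, a complex that assembles when a sensor such as NLRP3 recruits the adaptor ASC, the product of Pycard. The level of a transcript therefore shows how much precursor RNA is present and not how much active cytokine is made. The choroid plexus forms the barrier between blood and cerebrospinal fluid and is a gateway for immune cells into the fluid.

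The upstream sequences of Il18 and Il1b are shown because caspase-1 cuts the precursors of both and because the ages were set apart for the former and overlapped for the latter. Both are the 250 bases before the transcription start, written 5′ to 3′ in the direction of transcription, from RefSeq on build GRCm38.p6. Il18 lies at chr9:50554450-50554699 on the plus strand and Il1b at chr2:129371140-129371389 on the minus strand. Capitals mark matches to the letters TATAAA, the core of a TATA box, on either strand.
Il18: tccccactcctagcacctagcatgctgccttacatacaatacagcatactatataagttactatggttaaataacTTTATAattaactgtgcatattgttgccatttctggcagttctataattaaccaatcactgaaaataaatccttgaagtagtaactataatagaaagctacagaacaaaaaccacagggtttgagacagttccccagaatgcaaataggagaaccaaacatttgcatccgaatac
Il1b: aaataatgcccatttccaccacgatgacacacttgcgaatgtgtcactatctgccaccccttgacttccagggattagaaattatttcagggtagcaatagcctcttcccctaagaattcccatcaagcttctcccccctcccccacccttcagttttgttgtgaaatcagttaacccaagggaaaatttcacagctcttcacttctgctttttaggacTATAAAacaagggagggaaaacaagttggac
In the Il1b window the match began 31 bases before the start and read in the direction of transcription. In the Il18 window it began 175 bases before the start and lay on the opposite strand. Of 32851 windows of this length, 12.4% held such a match. Searches of both strands for TTCNNNGAA (gamma-activated site, found in 7.02% of windows), the core of the interferon-stimulated element (2.98%), TGANTCA (AP-1 site, 6.75%) and an NF-kappaB site (3.90%) gave no match in either printed window. Over all 10 genes there were 17 windows, some overlapping. TATAAA was matched in 5 of them (Il18, Il1a, Il1b and Il33). The match began 32 bases before the start in Il1a, and 203 and 29 bases before it in the windows of Il33. The gamma-activated site was matched in 1 window (of Il18r1), the AP-1 site in 2 (Il1a and Il1rn) and the NF-kappaB site in 2 (Il1r1 and Nlrp3). These are matches of letters, and a window without one says nothing about the factor.

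The tissue label was checked first. All 10 epithelial markers with a probe set lay above background, and Ttr, which encodes the thyroxine carrier made by the plexus epithelium, had log2 intensities between 14.25 and 14.48 in the 6 mice. Brain tissue was also present and varied from mouse to mouse. The summed linear intensity of 11 neuron markers ran from 2446.9 to 8198.4 at 18 months and from 2292 to 7780.9 at 2 months. That of 11 oligodendrocyte markers ran from 3163.1 to 8361.8 and from 2412.1 to 8191.9. Snap25, a synaptic gene, ran from 10.43 to 12.29 at 18 months and from 10.23 to 12.30 at 2 months in log2 intensity, and Mbp, a myelin gene, from 10.21 to 11.79 at 18 months and from 10.01 to 11.86 at 2 months. Both signals overlapped between the ages. Brain signal was highest in replicate 3 of each age and lowest in 18-month replicate 1 and 2-month replicate 2. The highest mean among 27 probe sets for bacterial transcripts, 4.51 on the log2 scale, served as the gauge of background. A gene was tested over all genes if its brightest probe set averaged at least 4.92, which 12681 genes did. Of the 10 genes described here, 4 did (Il18, Il18bp, Il1r1 and Il33). Il1b averaged 4.91 and lay just under that line, whereas Il33 averaged 5.45 and lay just over it.

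Il18 encodes interleukin-18, which drives interferon-gamma production by lymphocytes. Its 1 probe set had log2 intensities of 7.93, 8.03 and 8.09 in the older mice. The younger mice had 7.25, 7.28 and 6.81. Every older mouse lay above every younger one, with a gap of 0.65 between the lowest at 18 months and the highest at 2 months. The means were 8.02 ± 0.08 and 7.11 ± 0.27 (SD, n = 3 each). The older mice were thus 0.90 higher on the log2 scale (SE 0.19), or 1.87-fold. Il18 was the only 1 of the 4 genes above the filter whose age ranges were separate. Nothing is read from that count, since the genes were chosen with it known. Among all genes tested, 7.06% had separate ranges with the older mice higher and 6.25% with the older mice lower. Several marker lists also differed between the ages beside Il18. The summed linear intensity of 8 mast cell markers ran from 824.41 to 904.06 at 18 months and from 635.55 to 692.35 at 2 months, with 6 of 8 higher, and 4 of the 8 averaged under background. Hdc and Kit, which other cell types also express, made up 81.8% to 88.7% of that sum. The other 6, the mast cell proteases and receptor chains, summed to 99.6 to 129.6 at 18 months and 105.2 to 115.9 at 2 months and overlapped. That of 6 pituitary markers ran from 864.16 to 2035 and from 271.37 to 376.44, with 5 of 6 higher. Tshb and Cga averaged under background. Gh, the brightest of the 6 at 18 months, had log2 intensities of 10.40, 10.18 and 9.08, against 4.65, 5.63 and 4.44 in the younger mice. All 12 ependymal and multiciliated markers had a lower mean at 18 months. Their part in the level of Il18 was not tested. With any 1 mouse left out the difference of Il18 lay between 0.75 and 0.99.

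The partners of Il18 did not share that separation. Il18bp encodes the secreted decoy that binds interleukin-18 and blocks it. It had log2 intensities of 7.13, 7.87 and 7.56 at 18 months, against 7.34, 7.46 and 7.34 in the younger mice. Here the younger mice lay inside the range of the older ones, and the difference was 0.14 (SE 0.22). Il18r1 encodes the receptor chain that binds interleukin-18. It measured 4.16, 4.41 and 3.37 at 18 months against 3.43, 3.42 and 3.11 at 2 months, under the background gauge in all 6 mice, so no fold is given. The 2-month values of Il18r1 overlapped those at 18 months only through 18-month replicate 3. Il18rap, the second chain of that receptor, was outside the 10 genes and too dim to test. It had 4.63, 4.63 and 4.84 at 18 months, against 4.42, 4.76 and 4.49 in the younger mice, close to background.

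**Figure D1:**
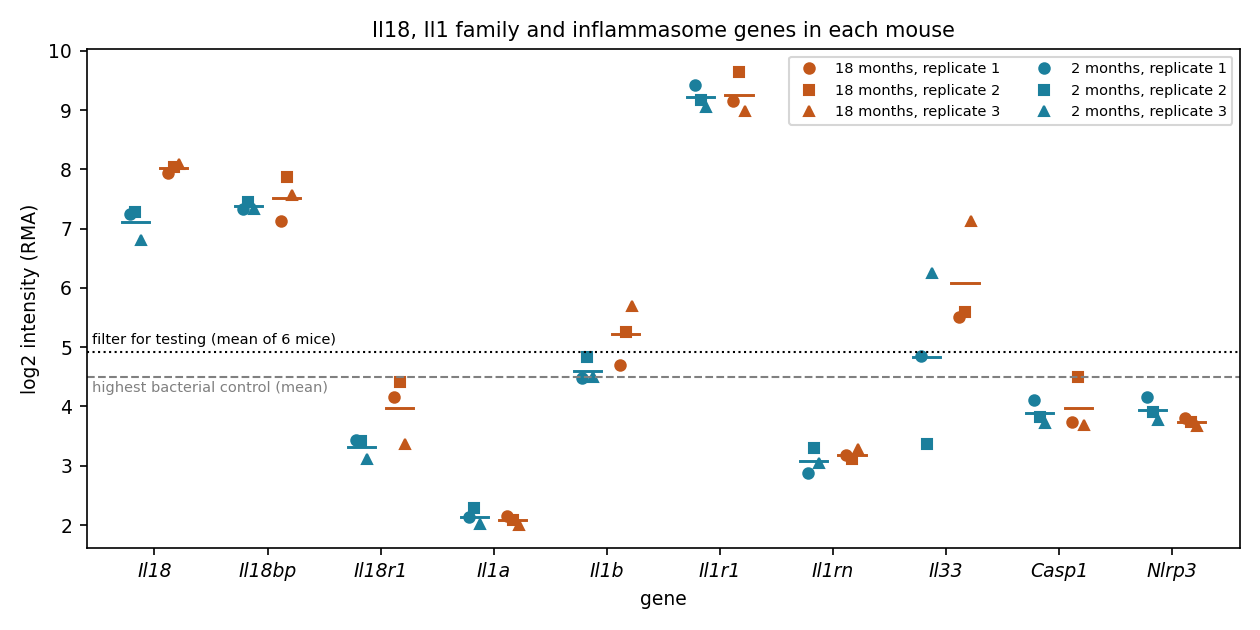
Log2 intensity (vertical axis) of the brightest probe set of each of the 10 genes (horizontal axis) in each mouse, with 2-month mice in blue on the left and 18-month mice in orange on the right of each gene, marker shapes for replicate numbers, and short lines for the means of 3 mice. The dashed line is the highest mean of a bacterial control (4.51) and the dotted line the filter (4.92); the ages are set apart for Il18 and overlap for the other 9.

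Il1a and Il1b encode the founding cytokines of the family, which act through the same receptor. Il1b had log2 intensities of 4.70, 5.25 and 5.69 at 18 months, against 4.48, 4.83 and 4.49 in the younger mice. The older mice were all above the background gauge and 1 of the 3 younger mice was, and the ranges overlapped. The means were 5.22 ± 0.50 and 4.60 ± 0.20 (SD, n = 3 each), a log2 difference of 0.61. Without 18-month replicate 3 this was 0.37. Beside it, neutrophil and monocyte markers, 2 cell types that make interleukin-1 beta, were higher at 18 months for 6 of 7 genes with a probe set. Their summed linear intensity ran from 1104.7 to 2775 at 18 months and from 569.45 to 949.6 at 2 months, and Mmp8, Ccr2 and Plac8 averaged under the background gauge. That sum was set mostly by S100a8 and S100a9, which encode the calprotectin chains of neutrophils and were singled out after their values were seen. S100a8 had 8.58, 7.996 and 10.10 at 18 months, against 6.89, 7.63 and 7.48 in the younger mice. S100a9 had 9.02, 9.43 and 10.43 at 18 months, against 8.19, 7.73 and 9.20 in the younger mice, and its ranges overlapped. Of the 7 markers 1, S100a8, had separate ranges. Il1b, S100a8 and S100a9 were all highest in 18-month replicate 3. So were Il33 and the summed neuron and oligodendrocyte markers. The part of neutrophils and monocytes in the level of Il1b was not tested.

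Il1a was near the floor of the array, at 2.15, 2.09 and 2.00 at 18 months, against 2.14, 2.28 and 2.01 in the younger mice. Il1rn encodes the receptor antagonist that blocks IL-1 signalling. Its brightest probe set measured between 3.11 and 3.28 at 18 months and between 2.88 and 3.30 at 2 months. All 3 probe sets of Il1rn stayed under background in every mouse, with age differences of 0.11, -0.0085 and 0.023. So neither cytokine Il1a nor the antagonist gave a level that can be compared between ages.

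Il1r1 encodes the receptor that carries the IL-1 signal, and it was well above background. It had 9.16, 9.65 and 8.99 at 18 months, against 9.43, 9.16 and 9.05 in the younger mice. The ranges overlapped almost fully, and the log2 difference was 0.048 (SE 0.23). A further probe set for Il1r1 stayed between 1.99 and 2.38 and gave no level above background. Il1rap, the accessory chain shared by receptors of the family, is no member of the set. It had 7.47, 7.18 and 7.74 at 18 months, against 7.18, 6.77 and 7.004 in the younger mice, a log2 difference of 0.48 (SE 0.21; limma, adjusted p = 0.722). Its 3 probe sets above the filter disagreed, from -0.96 to 0.48. The decoy receptor gene Il1r2 stayed under background in all 6 mice, between 3.06 and 3.32 at 18 months and between 2.82 and 3.23 at 2 months.

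Il33 encodes a nuclear alarmin released from damaged cells, and in brain it is known from oligodendrocytes and astrocytes. Its log2 intensities were 5.51, 5.60 and 7.13 at 18 months, against 4.86, 3.37 and 6.26 in the younger mice. The ages overlapped, since 2-month replicate 3 lay above 2 of the 3 older mice. The mean difference was the largest of the 10 genes, 1.25 (SE 0.78), from 4.83 ± 1.45 to 6.08 ± 0.91 (SD, n = 3 each). However, 2-month replicate 2, at 3.37, lay under the background gauge, and the 2-month mean lay under the filter. The size of the difference thus rests in part on a value that is no level above background. Without that mouse the difference was 0.52. Within each age Il33 varied more than 98.3% of the genes tested did, with a pooled SD of 1.21 against a median of 0.31. Il18 had 0.20, and 23.1% of genes varied less than it.

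The mice with high Il33 were also those with much brain signal. In order of Il33 within each age, the mean log2 intensity of the oligodendrocyte markers was 7.41, 8.20 and 8.80 at 18 months, against 6.61, 7.68 and 8.34 in the younger mice. All 11 of these markers lay above background, and 10 of 11 were higher on average at 18 months, with a median difference of 0.32. Astrocyte markers gave 7.98, 8.15 and 8.93 at 18 months in that order, against 7.45, 8.10 and 8.62 in the younger mice. Of these, 6 of 8 were higher on average at 18 months, with a median difference of 0.40. Neuron markers ranked the mice the same way. With the oligodendrocyte mean as a covariate the difference of Il33 was 0.395. It was 1.21 with the neuron marker mean and 0.48 with the macrophage and microglia marker mean. With any 1 mouse left out it ran from 0.52 to 1.97, and without 18-month replicate 3 and 2-month replicate 2 together it was -0.0034. For Il18 the covariates and the pair left out gave 0.97, 0.91, 0.98 and 0.95. The oligodendrocyte covariate and the pair of mice to leave out were chosen after seeing the data. Whether brain tissue set the level of Il33 was not tested.

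**Figure D2:**
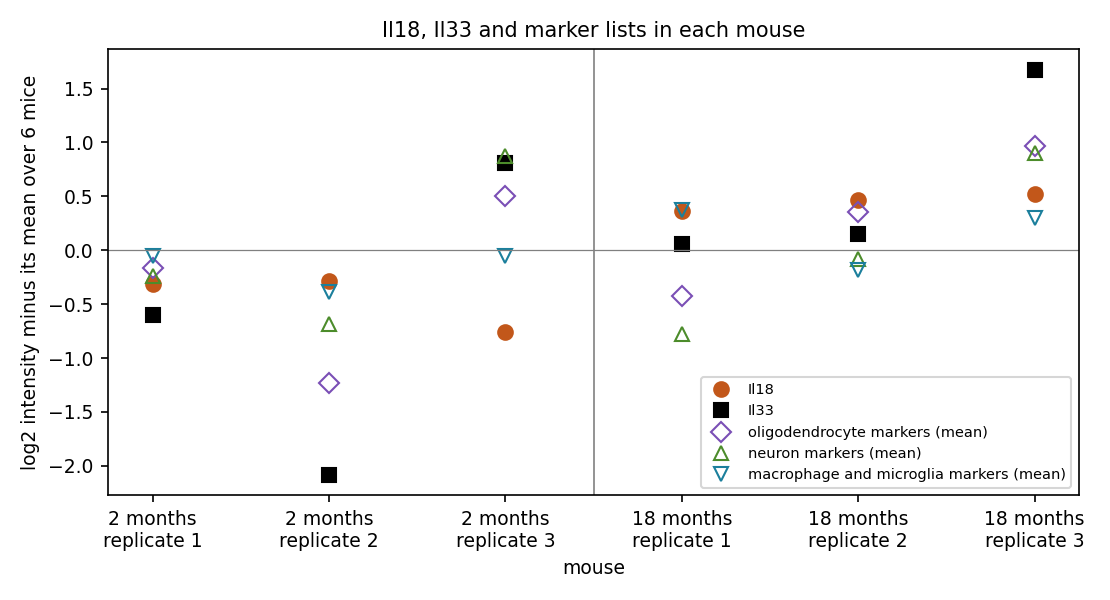
Log2 intensity minus its mean over the 6 mice (vertical axis) in each mouse (horizontal axis) for Il18 and Il33 (filled symbols) and for the mean of 3 marker lists (open symbols). Il33 and the oligodendrocyte markers were lowest in 2-month replicate 2 and highest in 18-month replicate 3, whereas Il18 lay below its mean in all 3 younger mice and above it in all 3 older ones.

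The inflammasome genes themselves were dim. Casp1, the protease gene, had 3.73, 4.50 and 3.69 at 18 months, against 4.11, 3.83 and 3.72 in the younger mice. Nlrp3, the sensor gene, had 3.80, 3.73 and 3.68 at 18 months, against 4.16, 3.90 and 3.78 in the younger mice. Neither rose above the background gauge in any mouse, and the ranges of both overlapped, so a difference in either was not detectable here. Macrophages and microglia are the cells best known for both genes. Of their 21 markers 17 lay above background, 14 were higher at 18 months and 7 lower, with a median difference of 0.20. Itgam, Adgre1, Cd163 and Lyve1 averaged under background. Their summed linear intensity ran from 6732.6 to 11097 at 18 months and from 5604.4 to 7754.5 at 2 months. Csf1r, which encodes the growth factor receptor of these cells, ran from 10.09 to 10.94 at 18 months and from 9.36 to 10.79 at 2 months. Aif1, which encodes the microglial protein IBA1, ran from 7.12 to 8.13 and from 5.45 to 6.90. Other markers of these cells had lower means at 18 months. Fcgr3, an antibody receptor gene, ran from 6.26 to 7.13 at 18 months and from 7.24 to 8.14 at 2 months, and the differences of Cd14, Tyrobp, P2ry12 and Tmem119 were -0.72, -0.46, -0.35 and -0.33 with overlapping ranges. Of the 14 higher markers, Ms4a7 (2.04) and Ctss (1.07) had separate ranges, as had Aif1. Fcgr3, Cd14, Tyrobp, P2ry12, Tmem119, Ms4a7 and Ctss were named after their values were seen.

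As a set, 8 of the 10 genes had a higher mean at 18 months and 2 a lower one (Il1a and Nlrp3, both under background), with a median log2 difference of 0.13. Over all 18193 genes 8744 were higher and 9449 lower, with a median of -0.01. The tally rested on 18-month replicate 2. Without that mouse 5 of the 10 were higher and 5 lower, with Il18bp at -0.032, Il1r1 at -0.14 and Casp1 at -0.18 and the median at 0.06. Leaving out 18-month replicate 1 kept 8 and 2, with a median of 0.27. Of the 10 genes, 5 (Il18r1, Il1a, Il1rn, Casp1 and Nlrp3) were under background in all 6 mice, so the direction of these is not a level difference.

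The other genes of the pathway were taken from lists of 89 symbols, 76 with a probe set and 39 bright enough to test. By limma 0 of the 39 were higher and 0 lower at an adjusted p under 0.05, as was the case for all 12681 genes (percent called 0 in each direction). At an unadjusted p under 0.05, 3 of the 39 were higher and 0 lower, where 4.02% of all genes were higher and 3.03% lower (7.05% in either direction). An ordinary 2-sample test with the same adjustment also called 0. Of the 39 tested genes, 6 had separate ranges with the older mice higher (Il1rap, Ninj1, Traf6, Map3k3, Ikbkg and Tollip) and 2 with them lower (Txnip and Casp8), against 7.06% and 6.25% of all genes tested. The gaps of the higher genes were 0.003 for Il1rap, 0.008 for Tollip, 0.02 for Map3k3, 0.19 for Traf6, 0.66 for Ninj1 and 0.86 for Ikbkg. For Il1rap, Traf6, Ikbkg and Tollip the probe sets above the filter lay on both sides of 0. Among the 37 not tested, Gbp2 was separate and higher, and Casp4 and Sigirr separate and lower. Casp4 was under background throughout. Sigirr lay near background, and its highest 18-month value was 4.659 against a lowest 2-month value of 4.663. The share of separate ranges among all untested genes was not computed, so nothing is read from these genes.

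Among sensors and their regulators 5 of 14 genes could be tested. Aim2, which encodes a sensor of cytosolic DNA, lay near background at 4.74 to 5.03 at 18 months and 4.91 to 5.13 at 2 months (log2 difference -0.12, SE 0.17). Nek7, the kinase gene required for NLRP3 activation, differed by 0.14 (SE 0.18), and its further probe set above the filter gave -0.15. Txnip, which encodes a redox protein reported to bind NLRP3, had 7.596, 7.44 and 7.73 at 18 months, against 8.11, 7.80 and 8.89 in the younger mice. All older mice were below all younger ones, with a difference of -0.68 (SE 0.30; limma, adjusted p = 0.719), and the further probe set above the filter gave -0.10. Brcc3, a deubiquitinase gene that acts on NLRP3, differed by -0.23 (SE 0.21).

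Pycard, the adaptor gene, was well above background where the sensor Nlrp3 and the protease Casp1 were not. It had 8.09, 8.35 and 7.37 at 18 months, against 7.90, 8.72 and 7.77 in the younger mice, overlapping, with a difference of -0.19 (SE 0.36). Its 3 probe sets ranged from -0.19 to 0.69. Gsdmd, whose product forms the membrane pore through which the cytokines leave, differed by -0.10 (SE 0.17). Casp4, which encodes the sensor of intracellular endotoxin, stayed under background in all 6 mice. Casp8 had 7.48, 7.62 and 7.65 at 18 months, against 7.99, 7.91 and 7.90 in the younger mice, a difference of -0.35 (SE 0.15; limma, adjusted p = 0.719). Gsdme, a further pore gene, differed by -0.997 (SE 0.68). Without 18-month replicate 1, 2 or 3 this was -0.66, -0.49 or -1.85, and with the mean of both probe sets -0.54. Ninj1, which encodes a protein that ruptures the membrane of dying cells, had 11.03, 10.47 and 10.58 at 18 months, against 9.81, 9.73 and 9.74 in the younger mice. The ages were set apart by 0.66, and the difference was 0.93 (SE 0.20; limma, adjusted p = 0.444). Its 3 probe sets above the filter gave 0.32 to 0.93, and the mean of all 4 gave 0.40.

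In the signalling chain below the receptors 23 of 25 genes were tested, 18 above 0 and 5 below, with a median difference of 0.28. Over all genes tested 6393 of 12681 were above 0, with a median of 0.0032. This tally takes the brightest probe set of a gene, and for 10 of the 23 genes the probe sets above the filter lay on both sides of 0. Those of Nfkbia ran from -0.84 to 0.28, those of Irak1 from -0.36 to 0.30, those of Traf6 from -0.61 to 0.71 and those of Tollip from -0.40 to 0.24. With the mean of all probe sets 14 of the 23 were above 0 and 9 below, with a median of 0.14. Ikbkg, which encodes the NEMO subunit of the kinase that releases NF-kappaB, had 8.36, 8.57 and 8.22 at 18 months, against 7.36, 6.84 and 7.09 in the younger mice. It had the smallest adjusted p of the pathway genes, 0.228 by limma, with a difference of 1.28 (SE 0.20) or 2.44-fold. Its 3 probe sets above the filter disagreed, from -0.28 to 1.28, and the mean of all 6 gave 0.30. Traf6, the ubiquitin ligase gene of the chain, differed by 0.71 (SE 0.24; limma, adjusted p = 0.672) and by 0.17 with the mean of its probe sets. Irak2, a kinase gene, differed by 0.53 (SE 0.25). Myd88, the adaptor gene shared by IL-1 and Toll-like receptors, had 5.79, 5.06 and 4.63 at 18 months, against 5.20, 5.95 and 6.05 in the younger mice (difference -0.58, SE 0.37). Rela, an NF-kappaB subunit gene, differed by -0.39 (SE 0.29) and Peli1 by -0.18 (SE 0.20). The probe sets of Peli1 above the filter ran from -0.53 to 0.22.

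Genes known to be induced by IL-1 or interleukin-18 were mostly too dim, with 5 of 20 tested. Icam1, an adhesion molecule gene, had 8.21, 7.11 and 7.61 at 18 months, against 6.23, 8.04 and 6.23 in the younger mice. The ranges overlapped through 2-month replicate 2, and the difference was 0.81 (SE 0.55), or 1.42 without that mouse. Leaving out 2-month replicate 1 or 3 instead gave 0.51, and leaving out 18-month replicate 1 gave 0.53. Vcam1, also for adhesion, differed by 0.32 (SE 0.23) and the chemokine gene Ccl2 by 0.039 (SE 0.17). Ptges, for the prostaglandin E synthase, differed by -0.45 (SE 0.45) and Tnfaip2 by -0.22 (SE 1.04), where leaving out 2-month replicate 3 gave 1.08.

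**Figure D3:**
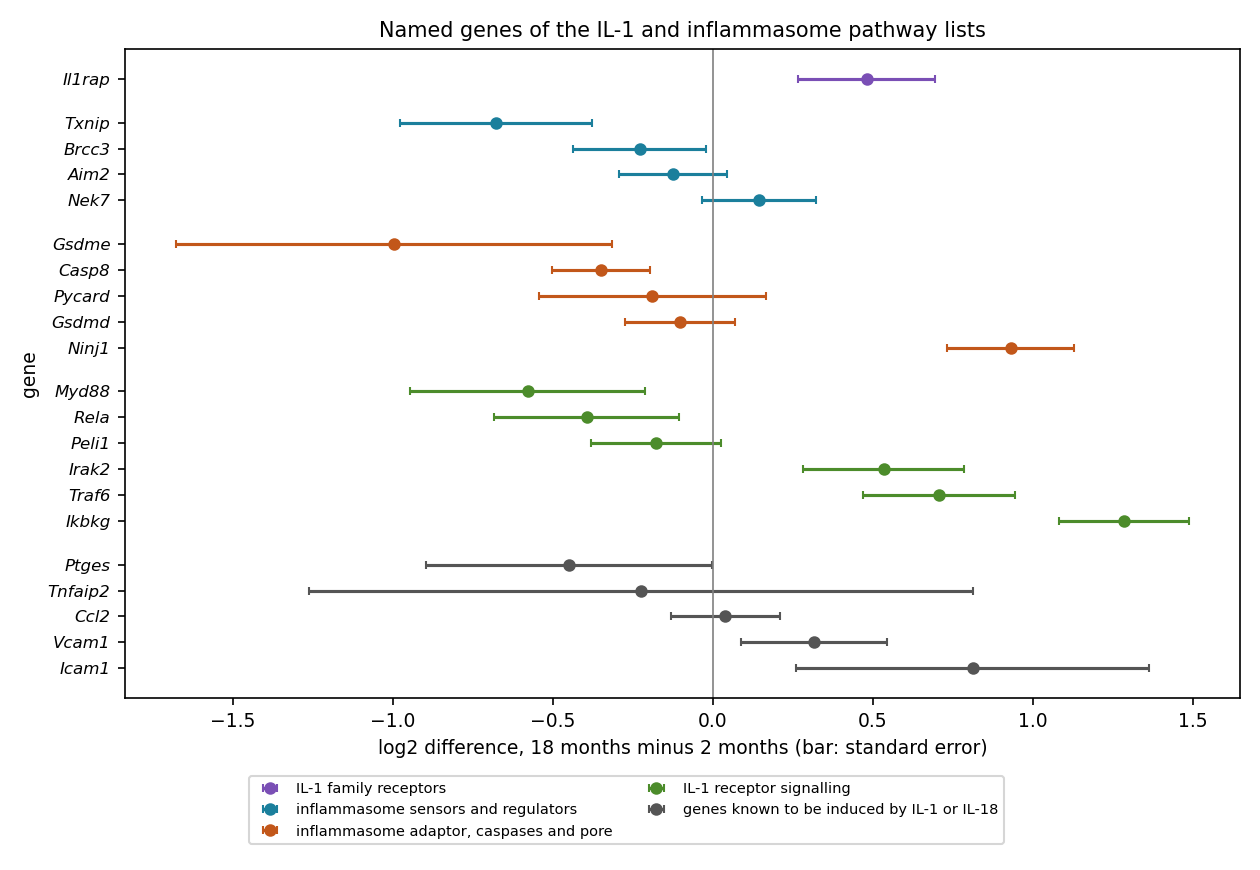
Log2 difference between ages (18 months minus 2 months, horizontal axis) with its standard error for the 21 tested genes named from the pathway lists (vertical axis), coloured by list. Ikbkg at 1.28 and Ninj1 at 0.93 are the highest, Gsdme at -0.997 is the lowest, and none passed an adjusted p of 0.05.

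The genes whose profile over the 6 mice was most like that of Il18, by the root mean square difference between mean-centred log2 values, were Mgat3 (0.0749), Fosl2 (0.0981), Nsdhl (0.102), Lhfp (0.111) and Slc3a2 (0.129). Among 12681 genes and 6 mice some profiles lie this close however genes are related. Mgat3, a glycosyltransferase gene, had 9.52, 9.46 and 9.47 at 18 months, against 8.61, 8.75 and 8.30 in the younger mice. Like Il18 it was lowest in 2-month replicate 3, which its choice by likeness to Il18 makes likely.

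**Figure D4:**
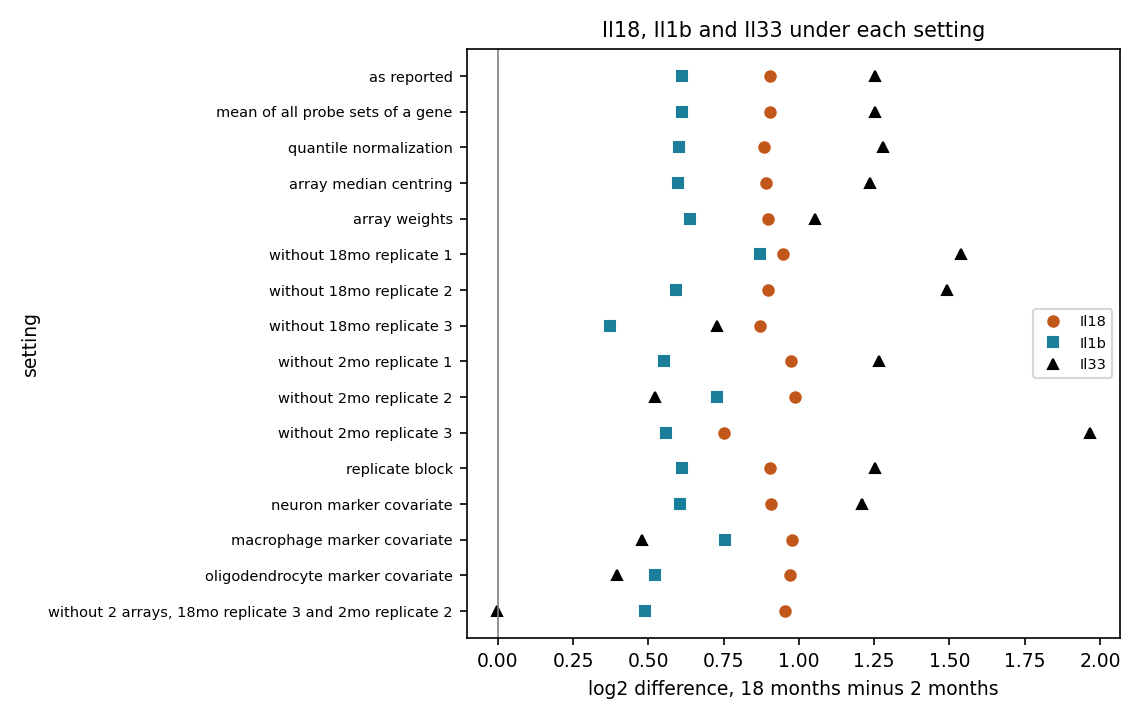
Log2 difference between ages (18 months minus 2 months, horizontal axis) of Il18, Il1b and Il33 under the reported and the alternative settings (vertical axis). Il18 stayed between 0.75 and 0.99 and Il1b between 0.37 and 0.87, whereas Il33 ran from -0.0034 to 1.97.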

How the data were processed

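Total RNA was extracted with a miRNeasy kit and amplified with a Nugen Pico kit, per the labels' protocols. The authors deposited 1 table of intensity values for 45101 probe sets on 6 arrays, made with RMA per the submitters' processing notes; version, software and genome build are not given in the sources used here. The deposited intensities ran from 2.47 to 26820.7 and are linear, so their log2 was taken. Array medians lay between 5.56 and 5.65. Probe sets were named from the platform annotation (34945 with 1 symbol, 932 with several, 9160 with none; those with several were not used). The probe set with the highest mean stood for a gene, and genes at or above the 40th percentile of non-control probe sets were tested. Ages were compared with limma 3.58.1 in R 4.3.3 over 12681 genes, two-sided, with Benjamini-Hochberg adjustment. The script was also run on simulated data whose means and spreads came from these arrays, and no result here rests on that run. The moderated test had 6.61 degrees of freedom, and the number of arrays limits precision. An array is 1 animal.

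The 10 genes and the pathway and marker lists were chosen with earlier results of these data known. The text names all 10 genes, the 3 tested pathway genes with the smallest p in each direction per list, 10 pathway genes fixed by name, of which Il1rl1 and Nlrc4 had no usable probe set here, and the 5 genes nearest to Il18. Alternatives were other filters, probe set averaging, scalings, array weights, marker covariates, left-out mice and a replicate block.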

Additional observations from a re-analysis of the deposited data

How the results depend on the processing

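The difference of Il18 kept its direction under all 17 alternatives, from 0.75 to 0.99, and moved by less than the spread between replicates. Under the other filters, probe set averaging (Il18 has 1 probe set) and the replicate block it could not move and stayed at 0.90. The range therefore rests on the remaining alternatives. The median of the 10 genes stayed above 0, from 0.06 to 0.36; the highest value, 0.36, came with the macrophage marker covariate, and leaving out single mice gave 0.06 to 0.27. Of the 10 genes, Il18bp, Il1r1 and Casp1 fell below 0 without 18-month replicate 2; Il1r1 also did without 2-month replicate 3 (-0.033) and with the mean of its probe sets (-0.0058), and Il33 without 18-month replicate 3 and 2-month replicate 2 (-0.0034). Il1a rose above 0 without 2-month replicate 2 (0.0055), with the oligodendrocyte covariate (0.016) and without that pair of mice (0.046). Calls over all genes numbered 0, but were 4 with a 60th percentile filter, 5 with the mean of all probe sets, 5 with array median centring, 4 with array weights, and 1 with the neuron or the oligodendrocyte covariate. No alternative called a pathway gene. The cause of these changes was not tested. A replicate block was run because both ages number their mice 1 to 3. With 1 mouse per age in each block it cannot change a difference, only its SE. The SE of Il18 went from 0.19 to 0.22, and the calls stayed at 0. Same-numbered mice had deviations from their age means correlated at -0.02, 0.02 and 0.17, and differently numbered mice at -0.15 to 0.14. With 3 mice per age these values cannot decide whether the numbers mark pairs. The labels name no pairs, so the numbers were not taken as such.

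Of 21 named and tested pathway genes, 5 changed sign under at least 1 alternative. Il1rap gave -0.14 and Pycard 0.25 with the mean of all probe sets. Pycard also gave 0.25 with the macrophage covariate and 0.13 with the oligodendrocyte covariate; leaving out mice gave -0.40 to 0.39, above 0 without 18-month replicate 3 (0.09), without 2-month replicate 2 (0.11) and without both (0.39). Leaving out mice gave Ccl2 -0.013 to 0.19, below 0 without 18-month replicate 2 (-0.013), 2-month replicate 1 (-0.012) or 2-month replicate 3 (-0.001). Ptges ran from -0.76 to 0.017, above 0 without 2-month replicate 1, and Tnfaip2 from -0.95 to 1.08, above 0 without 2-month replicate 3. Signal over background limits Il18r1, Il1a, Il1rn, Casp1 and Nlrp3, for which no level can be compared.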

Other observations

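Il33 and its nearest profiles show which transcripts varied with it. The 5 genes closest to Il33 over the 6 mice, a comparison added after seeing the data, were Col6a2 (root mean square difference 0.25 on the log2 scale), D16Ertd472e (0.28), Pcdhb3 (0.30), Syn1 (0.32) and Nap1l5 (0.32). Syn1, which encodes a synaptic vesicle protein of neurons, had 6.59, 7.72 and 8.65 at 18 months, against 6.42, 5.11 and 8.05 in the younger mice. Col6a2, a collagen chain gene, had 6.38, 6.21 and 7.33 at 18 months, against 5.81, 4.21 and 7.05 in the younger mice.

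In RefSeq gene order (GRCm38.p6) Il1r1, Il1rl2, Il1rl1, Il18r1 and Il18rap follow one another, as do Il1a and Il1b, and Casp1 stands next to Casp4 and Casp12. Il1rl1 had no usable probe set. Among the other receptor genes, Il1r1 was above background in all 6 mice, Il18rap in 4 of 6, and Il1rl2 and Il18r1 in none. Casp1, Casp4 and Casp12 were likewise above it in none.

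Gbp2, an interferon-induced GTPase gene that acts on inflammasomes, was too dim to test. It and Naip2 were chosen after their values were seen. Gbp2 had 5.23, 5.25 and 4.59 at 18 months, all above background, and 3.34, 3.69 and 4.0001 in the younger mice, all under it. Naip2, a sensor gene for bacterial secretion systems, had 5.74, 4.24 and 6.45 at 18 months, against 3.77, 4.33 and 3.65 in the younger mice, overlapping through 18-month replicate 2.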
